A study of Mus musculus with 18 samples.

Results

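High grade dysplasia (HGD) is neoplastic epithelium with marked disorder of its cells and glands that has not yet invaded, and it was set here against normal colorectal mucosa in the azoxymethane (AOM) and dextran sulphate sodium (DSS) mouse model of colitis-associated cancer. Both groups were taken by their labels and hold 3 arrays each, 6 of the 18 arrays of the series, with 1 array for each biological replicate. The HGD arrays come from male mice of the outbred ICR stock that were sampled on day 42. These mice were 6 weeks old at the start, were injected once with AOM at 10 mg/kg on day 1, and drank 2% DSS on days 8 to 14 and 1.5% DSS on days 29 to 33, so that 9 days lay between the last DSS and sampling. The normal arrays come from male ICR mice of the same starting age that received saline and distilled water and were sampled on day 14. AOM, DSS, the lesion and 28 further days of age therefore cannot be told apart in this comparison. The labels give the tissue as colorectum, name no engineered allele, and do not say how a lesion was separated from the surrounding wall or whether tissue of several mice was pooled.

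In the crypts of the colon, Wnt ligands hold beta-catenin in the nucleus of stem and progenitor cells, where it acts with TCF and LEF factors on target genes. Several of those targets are themselves inhibitors of the pathway, so their transcripts serve as a readout of it. Colonic tumours of AOM-treated mice are known for stabilising changes in beta-catenin. Cells that leave the crypt base mature into absorptive colonocytes, mucus-secreting goblet cells and hormone-secreting enteroendocrine cells, and Paneth cells are normally found in the small intestine and not in the mouse colon.

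Of 12877 genes tested, 940 were higher in HGD and 693 were lower at an adjusted p under 0.05, which is 7.3% and 5.38% of the genes. These counts come from a limma fit of the 6 arrays alone, on log2 of the deposited signal plus 16. The increases were the larger: 275 of the higher genes differed by at least 2-fold and 36 by at least 8-fold, against 122 and 0 of the lower genes. Both groups were tight. The median within-group standard deviation (SD) was 0.133 in HGD and 0.131 in normal mucosa on the log2 scale, and arrays of 1 group correlated at 0.978 to 0.985 in HGD and 0.980 to 0.985 in normal mucosa. When the spread was instead estimated from all 18 arrays, whose other stages vary more, 80 genes were higher (0.621%) and 67 lower (0.52%), and 146 of these 147 were also called, in the same direction, by the 6 arrays. In that fit 2527 genes had an unadjusted p under 0.05. The 3 HGD arrays lay beyond all 3 normal arrays for 35% of all genes and for each of the 1633 called genes. The 6 arrays had median signals of 55.7 to 57.8 and log2 ratios of the 3′ to the 5′ Gapdh control probe sets of -0.08 to 0.09, and HGD replicate 3 was the array whose omission raised the calls, to 1076 higher and 755 lower.

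**Figure D1:**
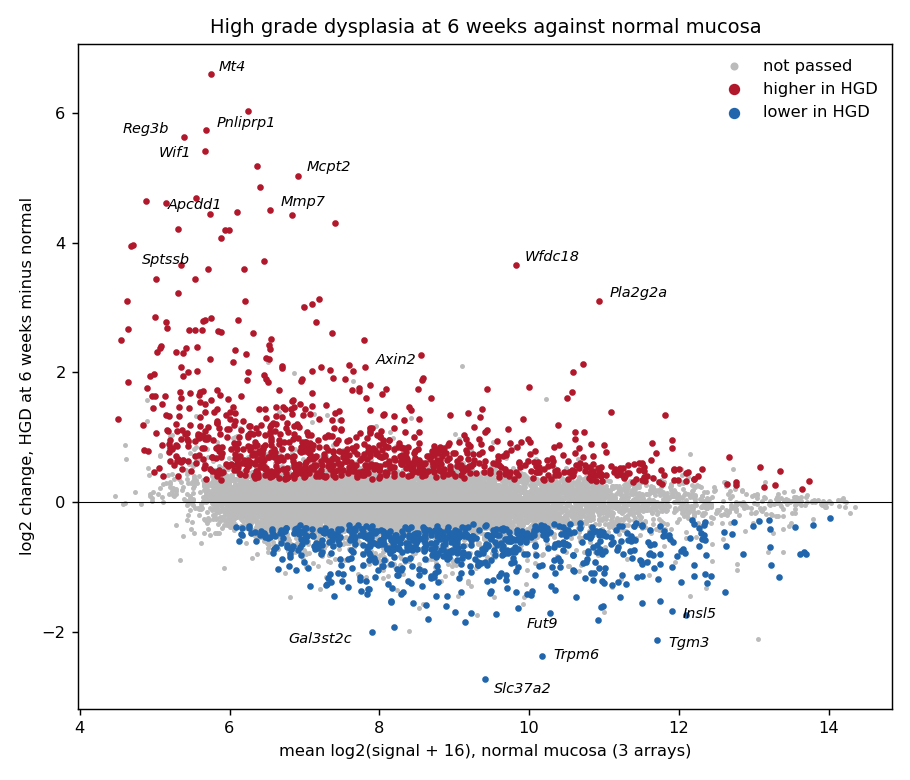
Each point is 1 gene, with its mean log2(signal + 16) in the 3 normal arrays on the x axis and the log2 change, HGD at 6 weeks minus normal mucosa, on the y axis. Red points (940 genes) passed as higher in HGD, blue points (693) passed as lower and grey points did not pass. The highest points are genes of low normal signal such as Mt4 and Wif1, while the lowest called point is Slc37a2 at -2.72.

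The inhibitors and feedback genes of the Wnt pathway rose together. Of 15 tested members of that list, 10 were higher (66.7%, against 7.3% of all genes) and 0 lower. The median change was 1.44 on the log2 scale, against 0.0082 over all genes. Wif1, which encodes a secreted protein that binds Wnt ligands, had signals of 2332, 2081 and 2058 in HGD, against 37.1, 29.8 and 39.0 in normal mucosa. No HGD array came near a normal one, and the change of 5.41 (SE 0.11, adjusted p = 2.66e-07) was the fifth largest among called genes with a name. Apcdd1, a membrane-bound inhibitor of Wnt signalling, had 2309, 1511 and 956 in HGD, against 55.6, 54.0 and 47.9 in normal mucosa (4.47, SE 0.27). Notum, an enzyme that removes the lipid Wnt needs to bind its receptor, had 714, 654 and 501 in HGD, against 54.7, 53 and 67.1 in normal mucosa (3.09, SE 0.15). Axin2, the scaffold of the beta-catenin destruction complex and a common readout of the pathway, had 1094, 893 and 831 in HGD, against 215, 216 and 194 in normal mucosa (2.08, SE 0.13). In each of these genes the lowest HGD array was several times the highest normal array. Dkk2 (2.66), Nkd1 (2.50), Rnf43 (1.44) and Znrf3 (1.09) also rose; the last pair are membrane ubiquitin ligases that remove Wnt receptors. Lef1, a DNA-binding partner of beta-catenin, rose by 1.11 (SE 0.25), a call held in 2 of the 6 fits that leave out 1 array. Not every member moved: Sfrp1 changed by -0.07, Sfrp5 by -0.03 and Nkd2 by -0.26, and none of these passed. Leaving out each array in turn gave 9 or 10 higher members. With the spread of all 18 arrays limma called 0 of the 15, of which 9 had an unadjusted p under 0.05, and Wif1 had an adjusted p of 0.054.

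Among 20 tested Wnt targets and stem cell genes, 8 were higher (40%, against 7.3% of all genes) and 2 lower (10%, against 5.38%). The median was 0.39. Lgr5, the R-spondin receptor that marks crypt base stem cells, had signals of 313, 277 and 193 in HGD, against 87.2, 76.0 and 83.8 in normal mucosa (1.47, SE 0.17, adjusted p = 0.00214). Prox1, a homeobox factor, had 752, 566 and 556 in HGD, against 45.3, 31.9 and 33.0 in normal mucosa (3.60, SE 0.15). Prox1 is also a marker of lymphatic endothelium, whose other tested marker Lyve1 changed by -0.87 and did not pass. Mmp7, the matrix protease matrilysin, had 1534, 2628 and 2261 in HGD, against 42.1, 181 and 53.6 in normal mucosa (4.51, SE 0.43). Tnfrsf19 (2.80), Ascl2 (0.96) and Cd44 (0.90) rose as well. Myc, the growth-driving transcription factor, rose by 0.65 (SE 0.14), a call that 2 of the 6 leave-one-out fits kept. Ccnd1, which encodes cyclin D1, changed by 0.49 (SE 0.21, adjusted p = 0.161) and Olfm4 by 0.09, and neither passed. Hnf4a (-0.47) and Cldn2 (-0.49) were the lower members. With all 18 arrays limma called 0 of the 20, and 7 had an unadjusted p under 0.05. Leaving out 1 array gave 6 to 8 higher members.

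**Figure D2:**
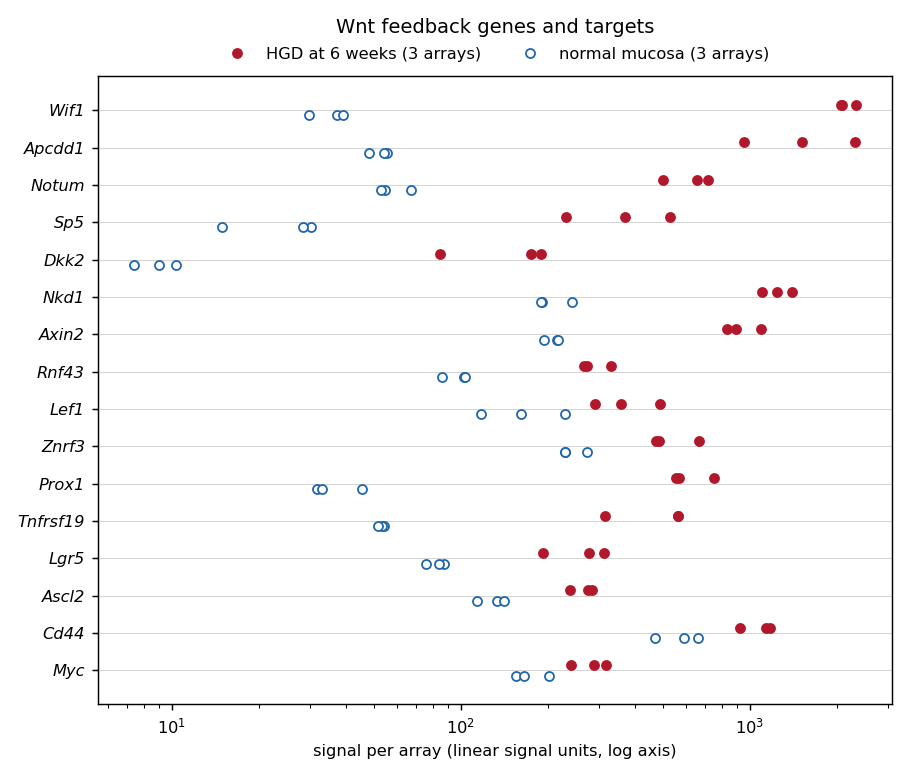
Signal of each array on a log axis for 16 Wnt feedback genes and targets, with the 3 HGD arrays as filled points above the 3 normal arrays as open points in each row. In every row the groups are apart, widest for Wif1 (2058 to 2332 in HGD, 29.8 to 39.0 in normal mucosa) and narrowest for Myc and Lef1. The rows were picked from the 1633 called genes, each of which has its groups apart, against 35% of all genes.

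Promoter sequence of the pathway's members was looked at because these genes moved together. RefSeq windows of 250 bases before an annotated start (GRCm38.p6) were found for 12 of the 18 higher members of both Wnt lists and for 9 of the 17 others. The letters CTTTGAT, a form of the TCF and LEF motif, were searched on both strands. They occur in 3.205% of all 32851 windows. Among the higher members they were found in 3 of 12 (Sp5, Mmp7 and Tnfrsf19), and among the others in 0 of 9, where a gene with several starts counts if any of its windows holds them. Sp5, a transcription factor and Wnt target with signals of 529, 369 and 231 in HGD, against 30.3, 28.4 and 14.9 in normal mucosa (3.23, SE 0.28), holds the motif at position -104 from its start. It is shown beside Wif1, which changed more and has no match in its window. Both are written 5′ to 3′ on the plus strand, for Sp5 chr2:70474673-70474922 and for Wif1 chr10:121033754-121034003, with the motif in capitals. A match is a string of letters and shows no binding.
Sp5: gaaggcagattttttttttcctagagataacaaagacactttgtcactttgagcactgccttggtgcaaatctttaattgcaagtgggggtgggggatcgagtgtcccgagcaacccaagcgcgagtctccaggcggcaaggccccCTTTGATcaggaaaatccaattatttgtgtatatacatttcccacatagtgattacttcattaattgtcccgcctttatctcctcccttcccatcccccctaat
Wif1: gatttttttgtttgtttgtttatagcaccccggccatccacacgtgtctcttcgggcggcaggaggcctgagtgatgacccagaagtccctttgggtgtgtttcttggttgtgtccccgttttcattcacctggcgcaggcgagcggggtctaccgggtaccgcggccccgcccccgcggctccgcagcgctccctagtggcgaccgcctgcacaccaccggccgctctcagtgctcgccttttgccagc

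Growth factor pathways beside Wnt moved gene by gene. Of 13 tested feedback genes and targets of ERK, the kinase that growth factor receptors activate, 5 were higher and 1 lower. Dusp4, a phosphatase that acts on ERK-family kinases, had signals of 403, 337 and 301 in HGD, against 87.7, 56.0 and 39.1 in normal mucosa (2.28, SE 0.22). Etv5 (2.16), Phlda1 (1.75), Ier3 (1.74) and Spred1 (0.46) rose too, while the intracellular feedback inhibitor Spry2 was lower by 0.50 (a log2 change of -0.50). Immediate early genes did not join them, with 0 of 14 higher and 2 lower: Egr1 fell by 1.06 and Klf2 fell by 0.58 on the log2 scale, and without HGD replicate 1 neither passed. Of 13 EGFR ligands and receptors, Tgfa (0.75) and Nrg1 (0.72) rose and the receptor inhibitors Lrig1 (-0.81) and Lrig3 (-1.14) fell. Another Lrig1 probe set and another Tgfa probe set changed in the opposite direction to the one used. Shh, the hedgehog ligand, had 389, 292 and 226 in HGD, against 36.3, 30.5 and 34.3 in normal mucosa (2.65, SE 0.18). It was the 1 higher member of 10 tested hedgehog genes, and Hhip, a hedgehog-binding inhibitor, was lower (-0.80). Of 12 Notch genes, the regulator Hes6 rose (1.91, SE 0.15) and the ligand Dll1 fell (-0.66). Id2 (1.15), Id3 (0.62) and Bmp7 (0.59) rose among 12 BMP and Id genes and Bmp2 fell (-0.78). Of 17 TGF-beta, activin and IGF genes 5 were higher, Inhbb (1.14), Igfbp5 (0.98), Igfbp4 (0.92), Igf1 (0.77) and Inhba (0.77), and Igfbp2 was lower (-1.37). Of all genes 7.3% were higher and 5.38% lower. The hedgehog list (10% and 10%) and the Notch list (8.33% and 8.33%) lay near these shares. The shares were 38.5% and 7.69% for the ERK list, 0% and 14.3% for immediate early genes and 15.4% each way for the EGFR list. They were 25% and 8.33% for BMP and Id genes and 29.4% and 5.88% for TGF-beta, activin and IGF genes. Some lower calls were lost when 1 array was left out. No hedgehog gene was lower without normal replicate 1, normal replicate 2, HGD replicate 1 or HGD replicate 2. No ERK gene was lower without normal replicate 2, normal replicate 3, HGD replicate 1 or HGD replicate 2. The Bmp2 call was lost without HGD replicate 1 or HGD replicate 2, and the Igfbp2 call without HGD replicate 2. The 18-array fit called 1 gene of these 7 lists, Lrig1.

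Genes of DNA replication were higher by small amounts, and genes of mitosis did not pass. Of 20 tested replication genes 9 were higher (45%, against 7.3% of all genes) and 0 lower, with a median of 0.36. Gins1, a part of the replicative helicase, had signals of 280, 276 and 199 in HGD, against 123, 138 and 130 in normal mucosa (0.85, SE 0.14). The ribonucleotide reductase subunit Rrm2 (0.76), cyclin E1 (Ccne1, 0.74) and 5 of the Mcm helicase genes (0.46 to 0.66) were also called. The 9 calls fell to 3 (Gins1, Rrm2 and Ccne1) in 4 of the leave-one-out fits and came to 10 without HGD replicate 3. Of 19 mitosis genes limma called 0, although 17 had a positive change (median 0.29) and 7 an unadjusted p under 0.05, and without HGD replicate 3 5 of them passed. The proliferation marker Mki67 had 1190, 970 and 1023 in HGD, against 1087, 1292 and 1071 in normal mucosa, and the groups overlapped (-0.11, SE 0.12, adjusted p = 0.569). Parp1, a DNA strand break sensor (0.69), and Ezh2, the Polycomb methyltransferase (0.81), rose, while limma called 0 of 15 p53 response genes, 2 of which had an unadjusted p under 0.05. Sterol synthesis rose: 6 of 14 tested genes were higher (42.9%, against 7.3% of all genes) and 0 lower (median 0.55). Cyp51, a demethylase of the pathway, had 512, 591 and 387 in HGD, against 200, 222 and 240 in normal mucosa (1.10, SE 0.16), and Fdps (1.08), Idi1 (0.97) and Nsdhl (0.73) followed. Cyp51, Idi1 and Nsdhl also passed with the spread of all 18 arrays.

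The transcripts of mature colonocytes were lower. Of 29 tested markers 17 fell (58.6%, against 5.38% of all genes), and the median change was -0.79. Mogat2 (0.56) was the 1 that rose (3.45%, against 7.3%). Slc37a2, a sugar phosphate transporter, had signals of 78.2, 96.4 and 87.8 in HGD, against 1152, 878 and 284 in normal mucosa, the largest decrease of any called gene (-2.72, SE 0.44, adjusted p = 0.00796). Trpm6, the magnesium channel, had 146, 256 and 238 in HGD, against 1078, 1967 and 695 in normal mucosa (-2.37, SE 0.36). In both genes the normal arrays were spread more widely than the HGD arrays, and the groups did not overlap, as in each called gene. The chloride and bicarbonate exchanger Slc26a3 had 4655, 4110 and 5330 in HGD, against 9611, 12147 and 9518 in normal mucosa (-1.15, SE 0.12). Car4, a carbonic anhydrase of the surface epithelium, had 2380, 2253 and 2830 in HGD, against 4691, 7619 and 4636 in normal mucosa (-1.14, SE 0.19). Atp12a, the colonic proton and potassium pump (-1.56), and Slc26a2, a sulphate transporter (-1.14), fell as well. The water channel Aqp8 was lower by 1.46 (a log2 change of -1.46, SE 0.33), a call that 1 of the 6 leave-one-out fits kept. Leaving out 1 array gave 11 to 17 lower members, the fewest without HGD replicate 2 (11) and HGD replicate 1 (12). Slc37a2 and Trpm6 were the 2 that passed in the 18-array fit.

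Enzymes of drug and steroid metabolism, many of them products of mature colonocytes, moved in the same direction. Of 22 tested, 13 were lower (59.1%, against 5.38% of all genes), with a median of -0.79. Gstm5 (0.54) was the 1 higher member (4.55%, against 7.3%). Sult1a1, a sulphotransferase, had signals of 1096, 1367 and 1106 in HGD, against 3220, 3420 and 3637 in normal mucosa (-1.52, SE 0.11). Cyp3a13 (-1.58), the retinal dehydrogenase Aldh1a1 (-1.39) and the glutathione transferase Gstm3 (-0.99) fell too. Between 9 and 15 members were lower when 1 array was left out, the fewest without HGD replicate 1. Of 18 genes of fatty acid oxidation and ketogenesis, 5 were lower (27.8%, against 5.38% of all genes) and 0 higher. The count was 2 without normal replicate 1 or HGD replicate 1 and 3 without normal replicate 3 or HGD replicate 2. Slc16a1, a monocarboxylate transporter that takes up butyrate, had 1252, 1148 and 1028 in HGD, against 1960, 1979 and 2025 in normal mucosa (-0.79, SE 0.10). Acadm (-0.46), Cpt1a (-0.45) and Hadh (-0.27), enzymes of the oxidation pathway, were lower too. The nuclear receptor Ppara (-0.56) and Aldh1a1 also passed with the spread of all 18 arrays. General epithelial genes such as keratins and cadherin did not follow, with a median of -0.07. Of these 16 genes 1 was higher (6.25%, against 7.3% of all genes), the claudin Cldn4 (1.66), and 0 were lower. Their summed signal was 64060 to 66511 in HGD and 64681 to 69847 in normal mucosa, so the ranges overlapped. In RNA from whole tissue, fewer cells of a type and less RNA per cell cannot be told apart.

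Hormone transcripts of enteroendocrine cells were lower. Of 15 tested markers 9 fell (60%, against 5.38% of all genes), with a median of -0.95. The transcription factor Isl1 (0.52) rose, and 1 of 15 (6.67%) is near the 7.3% of all genes that were higher. Insl5, a peptide of colonic L cells, had signals of 1367, 1410 and 864 in HGD, against 4111, 3846 and 3510 in normal mucosa (-1.67, SE 0.18, adjusted p = 0.00174). Gcg, the precursor of glucagon-like peptides, had 426, 434 and 256 in HGD, against 940, 1436 and 724 in normal mucosa (-1.42, SE 0.28). Chga, a protein of secretory granules, had 210, 152 and 151 in HGD, against 499, 333 and 309 in normal mucosa (-1.07, SE 0.20). Replicate 3 was the lowest HGD array for Insl5 and Gcg. For all 3 genes every HGD array was below every normal array, as for each gene called lower. Between 5 and 8 markers were lower when 1 array was left out (5 without normal replicate 1), and limma called 0 in the 18-array fit, where 5 had an unadjusted p under 0.05.

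The goblet cell list split. Of 19 tested markers 7 were lower (36.8%, against 5.38% of all genes) and 0 higher. Muc2, the main gel-forming mucin of the colon, had signals of 10197, 7203 and 8824 in HGD, against 10490, 8346 and 11673 in normal mucosa, and the groups overlapped (-0.22, SE 0.15, adjusted p = 0.382). Atoh1, the factor that commits cells to the secretory lineage, had 481, 464 and 376 in HGD, against 813, 843 and 907 in normal mucosa (-0.94, SE 0.12). Clca1 (-0.80) and Klk1 (-0.77) fell, though another Klk1 probe set had the opposite sign, while Spdef, Agr2 and Zg16 changed by 0.12, -0.06 and -0.17 and did not pass. Enzymes that build and cap mucin sugars were lower in 6 of 20 cases (30%, against 5.38% of all genes) and higher in 0. Changes in that list ran from -1.64 to 3.02, so the largest was an increase, and it did not pass. At an unadjusted p under 0.05 in the 6-array limma fit, 3 members were higher and 9 lower. Fut9, a fucosyltransferase that makes Lewis x structures, had 323, 276 and 248 in HGD, against 842, 1015 and 873 in normal mucosa (-1.64, SE 0.13), and it passed in the 18-array fit. St6gal1 (-0.74) and St3gal6 (-0.70), which add sialic acid, fell too. Gal3st2c, a galactose sulphotransferase outside the list, had 51.4, 41.4 and 38.2 in HGD, against 249, 151 and 290 in normal mucosa (-2.01, SE 0.22). Leaving out 1 array gave 2 to 6 lower goblet markers, 2 without HGD replicate 1, and 4 to 6 lower sugar enzymes. Without normal replicate 2, 1 sugar enzyme was called higher.

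Several products known from Paneth cells of the small intestine, though not all confined to them, were high in the lesions. Of 8 tested markers 6 were higher (75%, against 7.3% of all genes) and 0 lower (median 3.65). Defa31, an antimicrobial alpha-defensin, had signals of 4893, 5712 and 4322 in HGD, against 57.2, 60.1 and 63.4 in normal mucosa (6.02, SE 0.12, adjusted p = 2.66e-07). Its probe set carries the manufacturer's mark for possible binding of similar transcripts, so other alpha-defensins may contribute to the value. Reg3b, an antibacterial lectin, had 774, 4256 and 2667 in HGD, against 12.5, 10.8 and 81.4 in normal mucosa (5.63, SE 0.67), and Reg3g rose by 4.20 (SE 0.44). Reg3b was not particular to the lesions, with signals of 2162, 24.1 and 1934 in the inflamed mucosa at 2 weeks. The secreted phospholipase Pla2g2a had 17132, 16466 and 16619 in HGD, against 1340, 843 and 6386 in normal mucosa (3.10, SE 0.62), and 3 of the 6 leave-one-out fits kept the call. Lyz1, the Paneth cell lysozyme, was already bright in normal mucosa and rose by 0.49 (SE 0.08). Itln1 (0.66) did not pass. Defa31 also passed in the 18-array fit.

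Epithelial genes seen in repair were higher. Of 12 tested regenerative markers 7 rose (58.3%, against 7.3% of all genes) and 0 fell, with a median of 0.67. Krt7, a keratin sparse in normal colon, had signals of 1887, 2079 and 1537 in HGD, against 903, 828 and 762 in normal mucosa (1.12, SE 0.13). Sprr2h (2.61) and the basal keratin Krt14 (1.85) rose. Among 11 squamous genes only Krt14 was called (9.09%, against 7.3% of all genes), and Krt13 (0.70), Krt4 (0.13) and Krt5 (-0.12) were not. Between 4 and 6 regenerative markers were higher when 1 array was left out. Sox17, an endoderm factor, rose by 1.20 (SE 0.18), Onecut2 by 1.20 (SE 0.13) and Hoxa9 by 0.80, and Cdx1 (-0.53) and Hoxb13 (-0.52), which specify the hindgut, fell. Of 16 tuft cell markers 8 were tested and 1 was higher (12.5%, against 7.3% of all genes), the actin-binding Avil (1.90, SE 0.17). Dclk1 changed by 0.32 and did not pass. Pou2f3 and Trpm5 were among 6 markers under the filter. Pou2f3 had signals of 27.8 to 31.7 in HGD and 30.7 to 34.1 in normal mucosa, and Trpm5 27.0 to 30.8 and 29.6 to 36.2.

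The largest change of any named gene was in a metallothionein, one of the small cysteine-rich proteins that bind zinc and copper. Mt4, known from stratified squamous epithelium, had signals of 6781, 4893 and 4240 in HGD, against 19.9, 62.1 and 40.3 in normal mucosa (6.59, SE 0.28, adjusted p = 2.33e-05). Mt3, known from brain, had 1136, 979 and 598 in HGD, against 70.7, 59.0 and 44.8 in normal mucosa (3.60, SE 0.24). Mt1, the widely expressed form, moved the other way, with 5451, 5758 and 3691 in HGD, against 8146, 10698 and 10071 in normal mucosa (-0.97, SE 0.17). Mt2 changed by -0.57 and did not pass. Mt4 and Mt1 also passed in the 18-array fit. The zinc transporter Slc30a2 had 1451, 1254 and 946 in HGD, against 27.0, 31.6 and 34.9 in normal mucosa (4.69, SE 0.16). The genes lie beside each other on chromosome 8, and the windows before the starts of Mt4 and Mt1 are shown since these members moved in opposite directions. The letters TGCNCNC, with N any base, are in capitals on either strand (chr8:94136954-94137203 for Mt4 and chr8:94178839-94179088 for Mt1, plus strand, GRCm38.p6, from RefSeq). They are a looser pattern than the core of the metal response element, so a match need not be such an element. Mt4 has 4 matches and Mt1 has 1, while Mt3, which rose, has 1 and Mt2, which did not pass, has 5. Whether the matches bear on these changes was not tested. Of all windows 44.413% hold at least 1.
Mt4: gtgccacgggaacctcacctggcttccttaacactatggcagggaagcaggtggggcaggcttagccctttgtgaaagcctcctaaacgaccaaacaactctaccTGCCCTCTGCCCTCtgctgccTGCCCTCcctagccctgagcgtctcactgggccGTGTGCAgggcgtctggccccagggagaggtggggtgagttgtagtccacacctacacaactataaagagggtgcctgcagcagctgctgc
Mt1: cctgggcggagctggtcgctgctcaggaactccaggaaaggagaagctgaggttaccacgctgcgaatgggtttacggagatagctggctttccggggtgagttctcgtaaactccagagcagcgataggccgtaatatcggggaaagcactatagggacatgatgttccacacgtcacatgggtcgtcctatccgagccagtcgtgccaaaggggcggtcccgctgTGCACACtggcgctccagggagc

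Other large increases came from unrelated families. Sptssb, a small subunit of the serine palmitoyltransferase that starts sphingolipid synthesis, had signals of 348, 297 and 536 in HGD, against 8.09, 11.2 and 10.0 in normal mucosa (3.95, SE 0.20). Its adjusted p was 4.71e-05 with the 6 arrays and 0.00234 with all 18. Of 22 tested sphingolipid genes 1 was higher (4.55%, against 7.3% of all genes) and 2 were lower (9.09%, against 5.38%), Sphk2 (-0.44) and Cers4 (-0.52). Wfdc18, a small secreted protein of the whey acidic protein family, had 10680, 10517 and 13065 in HGD, against 1172, 588 and 1014 in normal mucosa (3.65, SE 0.23). Prkg2, a cyclic GMP-dependent kinase, rose by 4.06 (SE 0.23), and Tex15, known from meiosis, by 4.20 (SE 0.22). Pnliprp1, a lipase-related protein of pancreatic acini, had 7614, 1562 and 1647 in HGD, against 26.3, 36.2 and 45.1 in normal mucosa (5.73, SE 0.55). Other acinar genes did not accompany it: Prss2 (0.10), Ctrb1 (0.18) and Cela3b (0.02) did not pass, and Cela1 was lower (-0.81). Among large decreases outside the lists were the serotonin receptor Htr4 (-1.93), the nuclear receptor Nr5a2 (-1.85), Anxa13 (-1.80) and the bicarbonate transporter Slc4a4 (-1.72), the last pair also passing in the 18-array fit. Tgm3, a transglutaminase, had 794, 643 and 845 in HGD, against 4489, 2563 and 3235 in normal mucosa (-2.12, SE 0.20).

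**Figure D3:**
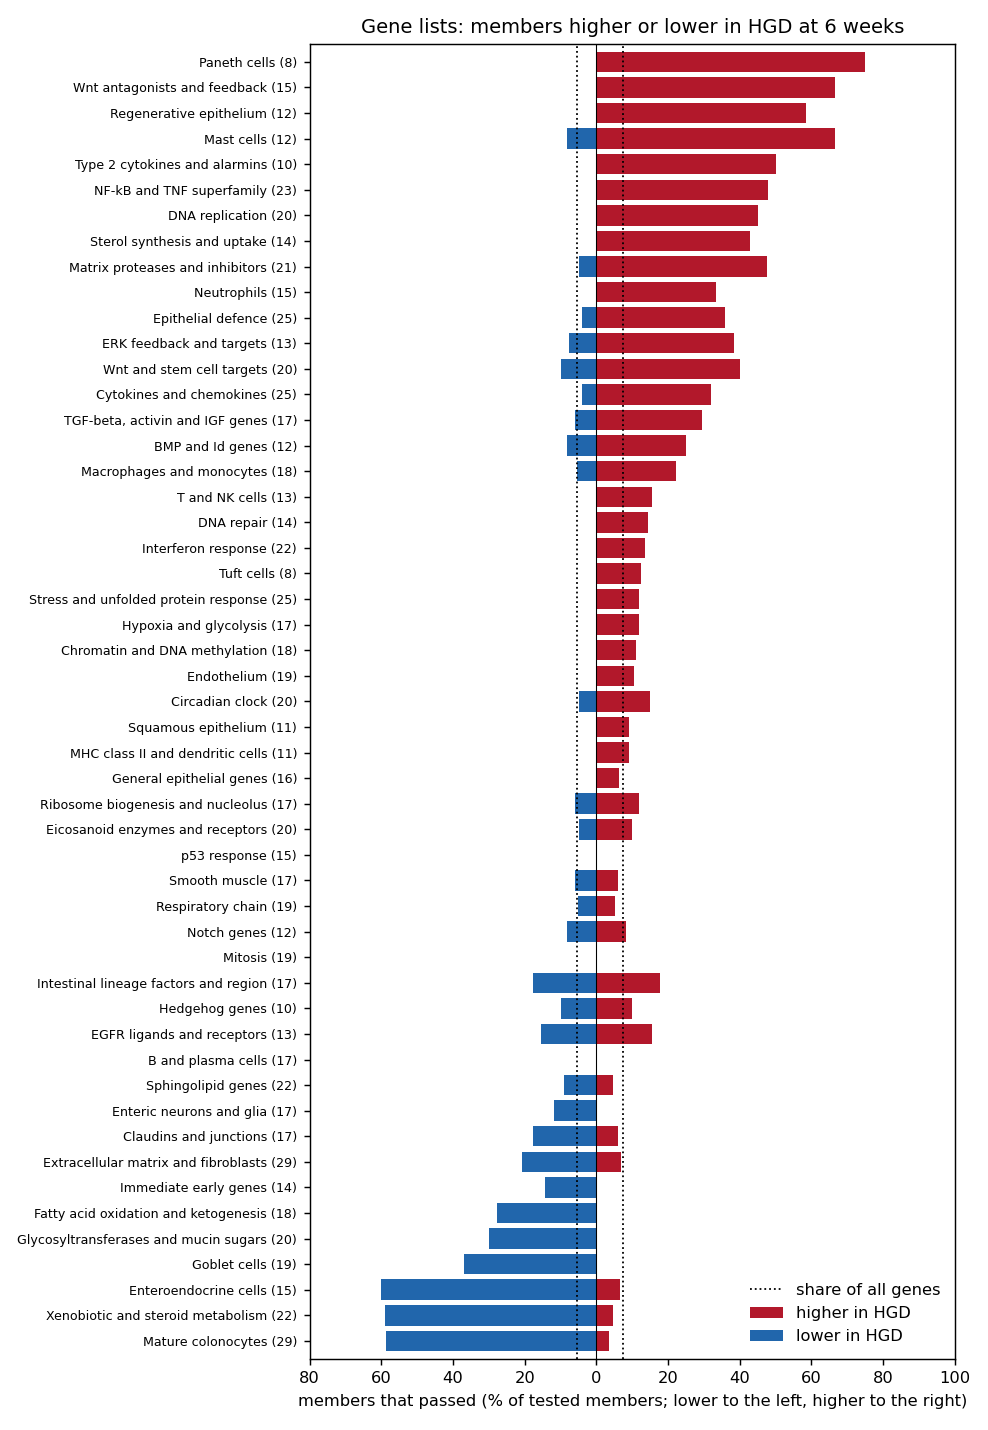
Share of tested members of each drawn gene list that passed as higher (red, to the right) or lower (blue, to the left) in HGD at 6 weeks. The number tested is in brackets, and dotted lines mark the shares among all genes, 7.3% higher and 5.38% lower. The metallothionein, adipocyte, erythroid, pancreatic acinar and sex-linked lists had few tested members and are not drawn. Paneth cell, Wnt feedback, regenerative and mast cell lists reach furthest right, and mature colonocyte, xenobiotic and enteroendocrine lists furthest left.

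Mast cell transcripts rose in all 3 lesions. Of 12 tested markers 8 were higher (66.7%, against 7.3% of all genes) and 1 lower (8.33%, against 5.38%), with a median of 1.53. The summed signal of the list was 6836 to 10354 in HGD and 702 to 1289 in normal mucosa. Mcpt2, a protease of mucosal mast cells, had signals of 5311, 3596 and 3077 in HGD, against 195, 125 and 42.2 in normal mucosa (5.02, SE 0.43, adjusted p = 0.000507). Mcpt1, the other mucosal mast cell protease, had 2882, 2632 and 1938 in HGD, against 144, 57.9 and 35.7 in normal mucosa (4.86, SE 0.37). Fcer1a, the binding chain of the IgE receptor, had 279, 181 and 174 in HGD, against 25.7, 53.7 and 10.9 in normal mucosa (2.38, SE 0.33). Cpa3 (2.21), Hdc (2.08), Ms4a2 (1.64), Cma1 (1.43) and Mcpt4 (1.30) also rose. Tpsab1 (0.98), Gata2 (0.23) and Tpsb2 (0.14) did not pass. Kit, the stem cell factor receptor that interstitial cells of the gut wall also carry, fell (-0.60, SE 0.12). Mcpt2 and Cpa3 were the 2 called in the 18-array fit, and 6 to 9 members were higher when 1 array was left out. Of 22 type 2 cytokine and alarmin genes 10 were tested, and 5 of those 10 were higher (50%, against 7.3% of all genes). Arg1 (2.78, SE 0.20) and the alarmin Il33 (0.77, SE 0.11) led, with Crlf2 (0.56), Chil3 (0.46) and Il4ra (0.40) behind them. Chil3 was dim, at a mean log2 level of 5.45 in HGD. The cytokine genes Il4, Il5, Il9, Il13, Il25 and Tslp lay under the filter and were not tested. Il13, for example, had signals of 21.5 to 28.8 in HGD and 21.5 to 29.6 in normal mucosa. Without HGD replicate 2, 2 genes of the list were higher, and 3 without normal replicate 1, normal replicate 2 or HGD replicate 1.

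Transcripts for neutrophils and for the chemokines that attract them were high, with HGD replicate 3 below the other lesions. Of 15 tested neutrophil genes 5 were higher (33.3%, against 7.3% of all genes) and 0 lower (median 0.57). S100a9, a subunit of calprotectin, had signals of 1299, 2939 and 388 in HGD, against 47.0, 15.3 and 62.5 in normal mucosa (4.44, SE 0.66). Its partner S100a8 had 2277, 5713 and 1992 in HGD, against 75.6, 41.7 and 89.9 in normal mucosa (5.17, SE 0.39). The chemokine Cxcl2 had 1601, 1325 and 284 in HGD, against 19.6, 16.5 and 22.9 in normal mucosa (4.61, SE 0.55). High levels of S100a8, Cxcl2 and Cxcl5 were not particular to the lesions. In the inflamed mucosa at 2 weeks S100a8 had signals of 15891, 20909 and 22228. Cxcl2 had 3102, 4575.5 and 8316.5 there, and Cxcl5 had 4007, 6971 and 6766. Lcn2 (4.42), an iron-sequestering protein that epithelium also makes, Mmp9 (1.35) and Csf3r (0.38) were the other called neutrophil genes. The chemokines Cxcl5 (4.63) and Cxcl1 (2.77) rose, while granule genes of neutrophil precursors such as Mpo (0.06), Ngp (0.08) and Camp (0.11) did not pass. Averaged over the list, the HGD arrays were 1.41, 1.65 and 0.92 log2 units above the normal mean. With 1 array left out, 3 to 6 neutrophil genes were higher, 3 without normal replicate 2, normal replicate 3 or HGD replicate 2. Of 25 cytokines and chemokines 8 were higher (32%, against 7.3% of all genes) and 1 lower (4%, against 5.38%). Without normal replicate 1 or normal replicate 3, 5 genes of the list were higher, and without HGD replicate 3, 13. Il23a (1.54) and Ccl3 (1.51) rose, and the epithelial chemokine Ccl28 fell (-1.27). Il6 had 41.9, 23.3 and 10.1 in HGD, against 8.76, 7.79 and 9.33 in normal mucosa, and did not pass (adjusted p = 0.124). Ptgs2, the inducible prostaglandin synthase, had 523, 533 and 99.3 in HGD, against 120, 101 and 149 in normal mucosa; replicate 3 lay below all normal arrays and the gene did not pass (1.23, SE 0.54, adjusted p = 0.174). Nos2 changed by 0.36 (adjusted p = 0.0592). Cxcl5 was the called member of these lists in the 18-array fit.

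Of 17 B and plasma cell genes limma called 0 in the 6-array fit, with 2 at an unadjusted p under 0.05, changes between -0.39 and 0.51 and summed signals of 42197 to 47621 in HGD and 41337 to 47267 in normal mucosa. Of 18 macrophage and monocyte genes 4 were higher (22.2%, against 7.3% of all genes) and 1 lower (5.56%, near the 5.38% of all genes). Tyrobp (0.92, SE 0.17), Cd68 (0.95), Lyz2 (0.52) and Csf1r (0.41) rose. Cd163, a scavenger receptor of resident macrophages, was lower (-1.44, SE 0.34) and dim in HGD, at a mean log2 level of 5.96. The count of higher macrophage genes was 5 without normal replicate 1 and 2 without each of the other arrays. No macrophage gene was lower without normal replicate 2, normal replicate 3, HGD replicate 1 or HGD replicate 2. Of 13 T and NK cell genes 2 were higher (15.4%), Gzmb (1.22) and Icos (0.69), and 1 without normal replicate 3, HGD replicate 1 or HGD replicate 2. Epithelial defence genes were higher in 9 of 25 cases (36%), among them the acute phase gene Saa3 (3.05, SE 0.41). Wfdc2 (-1.23) was the 1 lower member (4%, against 5.38% of all genes). Without HGD replicate 1 or HGD replicate 2, 5 genes of the list were higher. Interferon response genes were called in 3 of 22 cases (13.6%), all of the Ifitm family. Ifitm1 had signals of 7452, 6472 and 4902 in HGD, against 1518, 1246 and 1881 in normal mucosa (2.01, SE 0.19), and Ifitm3 rose by 1.34 (SE 0.10); both passed in the 18-array fit. Ifitm genes are also known as targets of Wnt signalling in intestinal tumours. In the eicosanoid list of 20, the lipoxygenases Alox12 (2.68) and Alox15 (2.39) rose and Hpgd, which degrades prostaglandins, fell (-1.23, SE 0.27). Those shares, 10% higher and 5% lower, lay near the 7.3% and 5.38% of all genes.

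Of 23 genes of NF-kB and the TNF superfamily 11 were higher (47.8%, against 7.3% of all genes) and 0 lower (median 0.68). Tnfrsf11b, or osteoprotegerin, a decoy receptor for the TNF family ligand RANKL, had signals of 380, 405 and 393 in HGD, against 10.4, 8.31 and 12.1 in normal mucosa (3.96, SE 0.10, adjusted p = 6.34e-07). The 3 lesions lay close together. Its ligand Tnfsf11 rose by 0.89 (SE 0.17), with 63.4, 58.6 and 36.2 in HGD, against 22.2, 16.3 and 23.1 in normal mucosa. Tnfrsf1b (0.96), Tnfsf9 (0.95) and Rel (0.70) rose, whereas Nfkbia rose by only 0.27. Between 6 and 12 members were higher when 1 array was left out, and Tnfrsf11b was the 1 that passed in the 18-array fit.

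**Figure D4:**
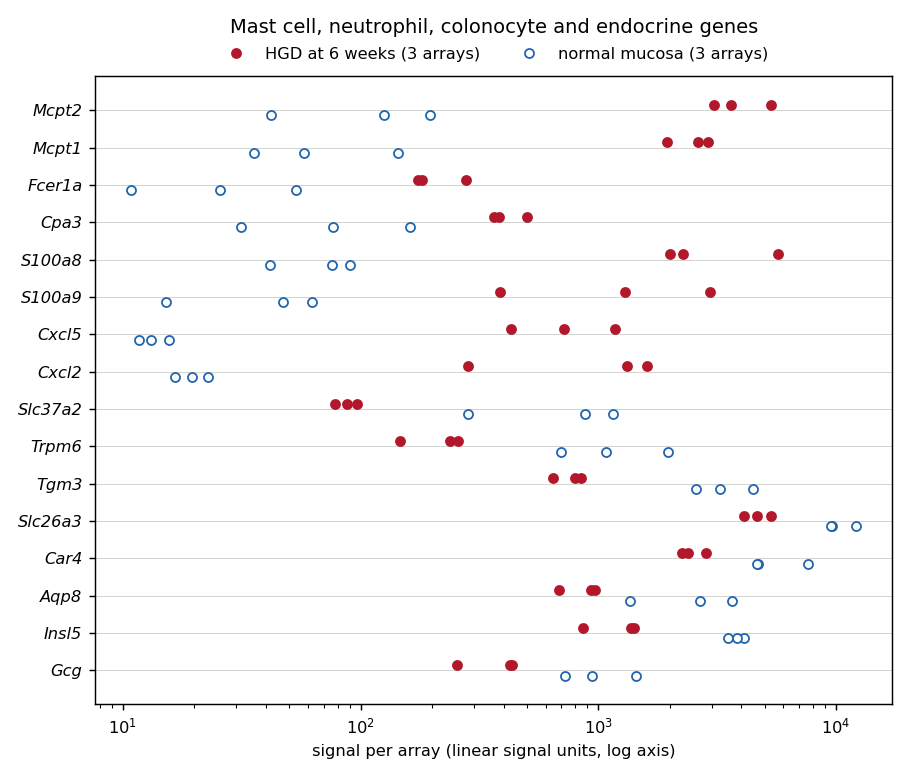
Signal of each array on a log axis for 16 genes of mast cells, neutrophils and their chemokines, colonocytes and enteroendocrine cells, with the 3 HGD arrays as filled points above the 3 normal arrays as open points. The upper rows, Mcpt2 to Cxcl2, lie to the right in HGD and the lower rows, Slc37a2 to Gcg, to the left. No row has overlapping groups, but the rows were picked from the 1633 called genes. Each of those has its groups apart, against 35% of all genes.

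Many transcripts of matrix proteases were higher and several of matrix proteins were lower. Of 21 matrix proteases and inhibitors 10 were higher (47.6%, against 7.3% of all genes), with a median of 0.72. Adamts1 (-0.71) was the 1 lower member (4.76%, against 5.38%). Plat, tissue plasminogen activator, had signals of 1601, 1323 and 486 in HGD, against 108, 129 and 98.8 in normal mucosa (3.01, SE 0.39), and Mmp12, the macrophage elastase, rose by 2.65 (SE 0.29). Both passed in the 18-array fit. Mmp14 rose by 1.00 and Timp1 by 1.36, and Mmp10, at 2.42 (SE 0.56), kept its call in 1 of the 6 leave-one-out fits. Without HGD replicate 3, 12 members were higher, and 6 without normal replicate 2, normal replicate 3, HGD replicate 1 or HGD replicate 2. Of 29 matrix and fibroblast genes 6 were lower (20.7%, against 5.38% of all genes) and 2 higher (6.90%, near the 7.3% of all genes). The lower count was 2 without normal replicate 3, 3 without normal replicate 2 or HGD replicate 1, and 4 without normal replicate 1 or HGD replicate 2. Postn, the matrix protein periostin, had 1626, 1151 and 2148 in HGD, against 2999, 3259 and 3448 in normal mucosa (-1.01, SE 0.20), Fap fell by 0.76 (a log2 change of -0.76), and Col18a1 (0.82) and Spon1 (0.94) rose.

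Markers of the muscle layer and of enteric neurons lay lower over the same arrays. Of 17 smooth muscle genes 16 had a negative change (median -0.95), but Casq2 alone was called lower (-0.89), and 1 was higher, the atrial myosin light chain Myl7. Each is 5.88% of the list, against 5.38% lower and 7.3% higher among all genes. The mean change of the list was -0.53, -1.62 and -0.07 log2 units in HGD replicates 1, 2 and 3, and its summed signal was 16607 to 45652 in HGD and 43910 to 63436 in normal mucosa. Without HGD replicate 3, 9 smooth muscle genes were called lower, and 0 without normal replicate 1, normal replicate 2, HGD replicate 1 or HGD replicate 2. Of 17 neuron and glia genes 2 were lower (11.8%, against 5.38% of all genes), the neurofilaments Nefl (-1.21) and Nefm (-1.04), and 0 were higher. The mean changes of this list were -0.41, -0.87 and -0.25 in the 3 HGD arrays. Without HGD replicate 3, 4 were called lower, and 0 without normal replicate 1 or normal replicate 2. The part that the amount of muscle wall has in the matrix gene values was not tested. Myl7 had signals of 1011, 1640 and 1197 in HGD, against 118, 108 and 172 in normal mucosa (3.12, SE 0.21), and passed in the 18-array fit. Of 19 endothelial genes 2 were higher (10.5%, against 7.3% of all genes), Prox1 and Angpt2 (0.84), and 0 lower, with Pecam1 at -0.13 and Cdh5 at 0.09. Among 20 clock genes Arntl fell (-1.41, SE 0.24) and Nr1d1, Dbp and Ciart rose (0.72, 1.32 and 0.59). Those shares were 5% lower, near the 5.38% of all genes, and 15% higher, against 7.3%. Leave-one-out fits called 1 clock gene higher, except 3 without normal replicate 3, and the hour of sampling is not given in the sources used here.

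The 3 other lesion stages were set against HGD at 6 weeks directly. In the limma fit of all 18 arrays 0 of 12877 genes were called against low grade dysplasia (LGD) on day 28, high grade dysplasia with active inflammation on day 56 or carcinoma on day 140. Unadjusted p-values under 0.05 were found for 900, 423 and 580 genes. The other stages were more variable, with median within-group SDs of 0.190 in LGD, 0.206 in HGD at 8 weeks and 0.142 in carcinoma, and LGD replicate 2 had a Gapdh 3′ to 5′ log2 ratio of 1.63. Without LGD replicate 3, 15 genes were higher in HGD at 6 weeks than in LGD and 40 were lower. Wif1 averaged 9.27 ± 2.13 in LGD, 11.08 ± 0.10 in HGD at 6 weeks, 9.89 ± 3.38 in HGD at 8 weeks and 10.62 ± 0.94 in carcinoma (log2 level, SD, n = 3 each). Mcpt2 averaged 8.31 ± 1.68, 11.93 ± 0.40, 9.69 ± 2.20 and 10.16 ± 1.97 in the same order. Against the shared normal arrays, the median change of the Wnt feedback list was 1.40 in LGD, 1.44 in HGD at 6 weeks, 1.44 in HGD at 8 weeks and 1.44 in carcinoma. That of the mast cell list was 0.18, 1.53, 1.27 and 1.04, that of the neutrophil list 2.04, 0.57, 1.30 and 0.69, and that of the colonocyte list -1.42, -0.79, -1.85 and -0.71. These are values side by side, since the stages share their normal arrays and 0 members of these lists differed between stages in the test above.

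**Figure D5:**
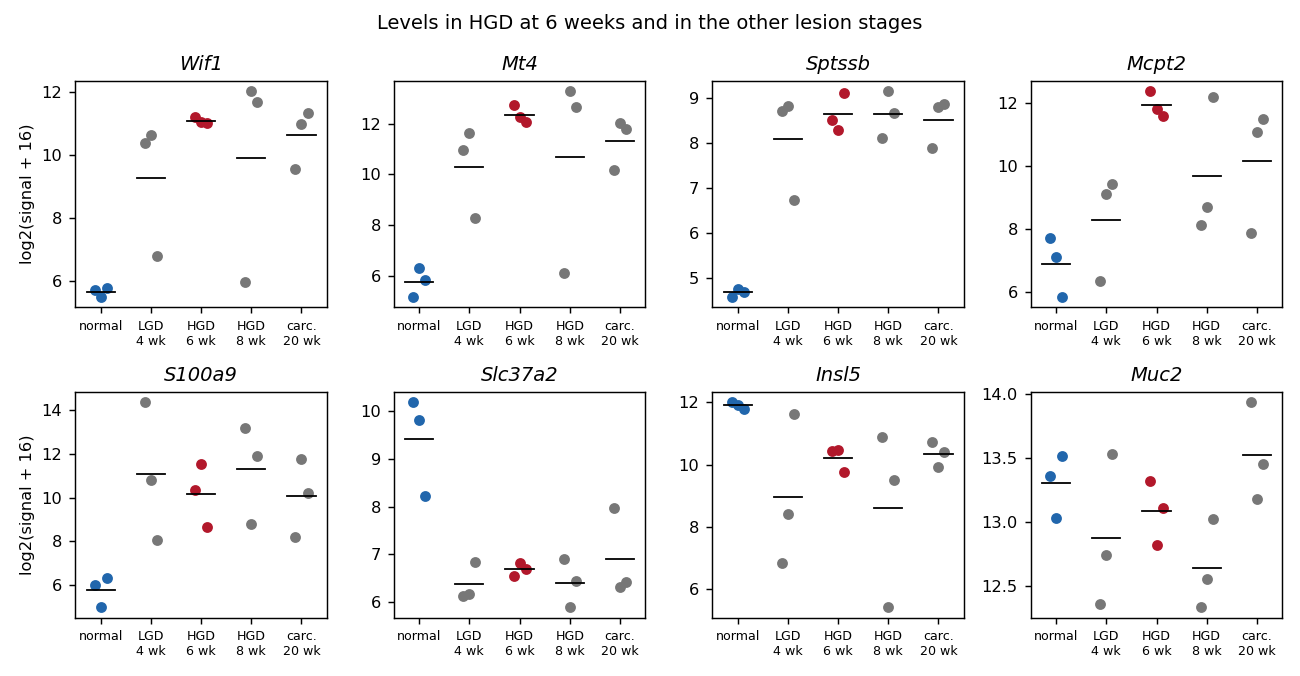
Log2(signal + 16) of 8 genes in each array of normal mucosa (blue), LGD at 4 weeks, HGD at 6 weeks (red), HGD at 8 weeks and carcinoma at 20 weeks, with the group mean as a bar; the inflamed mucosa at 2 weeks is not drawn. The 3 HGD arrays at 6 weeks lie close together for Wif1 (11.08 ± 0.10) and Slc37a2, while 1 LGD array and 1 array of HGD at 8 weeks lie near the normal level of Wif1.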

How the data were processed

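RNA of 18 colorectal samples was hybridised as biotin-labelled cRNA to Affymetrix mouse arrays. The deposited values are intensity, a linear signal per probe set. Per the submitters' processing notes MAS5 was used, with the version not given in the sources used here. The median of the table is 56.6, and its array medians lie close together, so no scaling was added. Precision is limited by the 3 arrays per group.

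Of 45101 deposited probe sets 64 are controls, 34945 have 1 gene in the platform annotation, 932 several and 9160 none. Of those with 1 gene, 34741 matched the RefSeq gene table by gene ID. Probe sets above the table median on at least 3 arrays were kept, and each gene took its brightest single-gene probe set, leaving 12877 genes. For 701 called genes other probe sets were kept too, and in 624 all had the same sign. Groups were compared with limma 3.58.1 (R 4.3.3, lmFit and eBayes with an intensity trend) on log2(signal + 16), which understates changes of dim genes. P-values are 2-sided and Benjamini-Hochberg adjusted over all genes, with a threshold of 0.05. The main fit holds 6 arrays (4 residual degrees of freedom). The fit of 18 arrays (12 residual degrees of freedom) was run beside it, as were other pseudocounts, filters, scalings, probe set rules, a replicate block and leaving out each array. The labels call the replicates biological. No 2 arrays held identical values. Deviations of arrays with the same replicate number correlated at 0.17, -0.23 and -0.0046, so the numbers were not taken as pairs.

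The comparison, the 56 gene lists and the always-named genes were chosen with earlier results of these data known. Of 1039 list genes 864 were tested; the others lay under the filter or are not analysed here. Named genes were the 12 largest increases and decreases with groups apart, the 10 largest each way called in both fits, up to 4 members per list with the largest change (or the member with the smallest p), and a set of always-named genes such as Axin2, Muc2 and Mcpt1; predicted genes were passed over. List members named beyond that rule were chosen after their values were seen. Changes are log2 differences, HGD minus normal mucosa, and SE is limma's standard error. The fit was tested on simulated data.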

Additional observations from a re-analysis of the deposited data

Results flagged for a closer look

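Probe sets without a single gene in the annotation lie outside the gene comparison of HGD at 6 weeks with normal mucosa. In a limma fit of the 6 arrays over 25034 kept probe sets, 270 of 2760 probe sets with no gene passed (9.78%), 86 higher and 184 lower. Over all kept probe sets 10.6% passed, so this share is near that of the whole table. The largest difference was in a probe set with no gene that had a mean of 11.98 in HGD and 4.48 in normal mucosa (log2 level), a difference of 7.50 (SE 0.15, adjusted p = 1.81e-07). The next probe sets without a gene differed by 6.71 (SE 0.12) and 5.65 (SE 0.14). The differences of 7.50 and 6.71 are larger than that of any named gene. Among 621 probe sets that the annotation gives to several genes, 65 passed (10.5%), 45 higher and 20 lower. They are given here because they carry differences in data that the gene comparison did not use, and no gene is named for them here.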

How the results depend on the processing

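The counts of 940 higher and 693 lower genes (1633 in all) stayed within 1.5 times under other pseudocounts, no filter, a filter on the 6 arrays, quantile normalization, median scaling, the mean of probe sets, omission of probe sets marked for related transcripts, no intensity trend and robust estimation, which gave 1484 to 1764 in all. Median scaling gave 909 higher and 807 lower. With the spread of all 18 arrays the counts were 80, 67 and 147; the residual spread there includes the more variable stages. The fit with the replicate block gave 625 higher, 362 lower and 987 in all, 944 of them shared with the main fit, and the numbers pair no samples by the labels or the correlations. Leaving out 1 array gave 483 to 1076 higher, 301 to 755 lower and 784 to 1831 in all, the fewest without HGD replicate 1 and the most without HGD replicate 3, and 634 genes passed in all 6 such fits. Of 169 named genes that passed, 116 did so in all 6, 140 in the replicate block and 35 with all 18 arrays, and 0 changed sign under any of these alternatives. Calls of Aqp8, Cyp2d12, Fmo2, Mmp10, Myc and Lef1 among others rested on most arrays being kept. Between HGD at 6 weeks and the other stages limma called 0 genes in the main fit. Leaving out 1 array gave 0 to 15 genes higher and 0 to 40 lower than in LGD, the most without LGD replicate 3, and 0 to 1 higher than in carcinoma. An alternative chosen after seeing the data, with only the 6 arrays of the pair, called 1 gene against HGD at 8 weeks, Guca2a (1.40 higher, SE 0.09, adjusted p = 0.0428). The causes of these differences were not tested. Values near the floor of the signal limit what dim genes can show.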

Other observations

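The remaining lists are given against the shares of all genes, 7.3% higher and 5.38% lower. Of 17 ribosome biogenesis genes 2 were higher (11.8%), Nhp2 (0.85) and Nop56 (0.75), and 1 lower, Utp20 (-0.56). Without HGD replicate 3, 9 were higher, without normal replicate 1, 3, and without each of the other 4 arrays, 0. Of 17 hypoxia and glycolysis genes Egln3 (0.91) and Pfkfb3 (0.78) were higher (11.8%), and neither without HGD replicate 1 or HGD replicate 2. Of 19 respiratory chain genes Ndufa4 (0.51) was higher and Cox7a1 (-0.61) lower. Of 25 stress genes Chac1 (0.95), Asns (0.71) and Txnrd1 (0.59) were higher (12%), a count of 0 or 1 without each array other than HGD replicate 3. Of 18 chromatin genes Ezh2 (0.81) and Hells (0.57) were higher (11.1%). Apex1 (0.74) and Parp1 (0.69) were higher among 14 DNA repair genes (14.3%). Among 17 claudins and junction genes Cldn4 (1.66) was higher and Cldn8 (-1.61), Cgn (-0.50) and Cldn2 (-0.49) were lower (17.6%), with 1 or 2 lower when 1 array was left out. Itgax (0.64) was the 1 called gene of 11 on the MHC class II and dendritic cell list, Pck1 (-1.37) that of 7 adipocyte genes and Tfrc (0.63) that of 2 erythroid genes. Of 4 sex-linked genes limma called 0, with 2 at an unadjusted p under 0.05.

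Small groups of outlying genes also rose. Tex15 had signals of 953, 777 and 488 in HGD, against 28.6, 20.5 and 22.0 in normal mucosa. Prkg2 had 1241, 1174 and 637 in HGD, against 45.4, 39.1 and 45.9 in normal mucosa, and its other probe sets changed by 1.93 to 4.50. Among decreases called in both fits, Ces1d, a carboxylesterase, had 92.0, 69.9 and 89.7 in HGD, against 256, 262 and 288 in normal mucosa, and Dgkh, a diacylglycerol kinase, had 167, 106 and 163 in HGD, against 466, 435 and 352 in normal mucosa. Defb45, a beta-defensin, fell by 1.39 on the log2 scale (SE 0.23).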
